A study of Mus musculus with 10 samples.

Results

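The genes described here are 10 components of the protein breakdown machinery of striated muscle, measured by RNA-seq in whole hearts of Prdm16 knockout and control mice. They were chosen by symbol for their known roles; the rule uses no measured value, but the choice was made with earlier results of these data known. The values at 3 months covered 46786 genes, 9 of these 10 among them, and those at 12 months 46977 genes, with all 10. They are the ubiquitin ligase genes Fbxo32 (atrogin-1, also called MAFbx), Trim63 (MuRF1), Trim55 (MuRF2) and Trim54 (MuRF3), the transcription factor genes Foxo1 and Foxo3, the cargo receptor gene Sqstm1 (p62), and the ubiquitin-like modifier genes Map1lc3a, Map1lc3b and Gabarapl1. Map1lc3b was not analysed at 3 months.

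Muscle cells break down their own proteins by a pair of routes. In the ubiquitin-proteasome route a ligase tags a protein with ubiquitin and the proteasome digests it; Fbxo32 and Trim63 encode the ligases best known from wasting muscle, and the MuRF proteins bind the sarcomere. In autophagy a double membrane encloses cargo and delivers it to the lysosome; LC3 and GABARAP proteins are attached to that membrane, and p62 bridges it to ubiquitin-tagged cargo. FoxO transcription factors, held back by insulin and Akt signalling, are known to activate genes of both routes in skeletal and cardiac muscle.

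The groups were 3 Prdm16 knockout and 3 control heart libraries at 3 months of age, and 2 knockout and 2 control heart libraries at 12 months. Below, hearts and n count these libraries, not animals. The labels name the genotype only as knockout or control, and give no strain, allele or sex, nor the promoter of any Cre. They do not say whether the libraries of a group are separate animals; a p-value here therefore measures spread between samples that may be technical. Values are FPKM (read fragments scaled to transcript length and library size), in 1 table per age, and libraries of the 2 ages were prepared at different places. Knockout and control were therefore compared within an age. Libraries of both ages were used in the contrast between ages, the fit that shares the spread and the likeness between genes. In whole-heart RNA, fewer cells of a type and less RNA per cell cannot be told apart.

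Prdm16 itself averaged 1.41 ± 0.635 FPKM in 3-month knockout hearts and 1.76 ± 0.417 FPKM in controls (SD, n = 3 each), with overlapping values, so it does not check the 3-month labels. At 12 months it stood at 4.02 and 3.58 FPKM in knockout hearts, against 6.31 and 5.05 FPKM in controls. Of 10 cardiomyocyte markers 9 were above 0 in every library; Ryr2 was listed at 0 in 3-month control replicate 2, against 22.9, 20.7 and 24.8 FPKM in 3-month knockout hearts and 25.9 and 29.1 FPKM in the other controls. The 10 genes summed to 33444 to 34003 FPKM in knockout hearts and 26044 to 32824 FPKM in controls at 3 months, and to 64653 to 65265 FPKM in knockout hearts and 61073 to 61152 FPKM in controls at 12 months. Xist, the RNA of the inactive X chromosome, was at 0.0911 and 0.0240 FPKM in 12-month knockout hearts and at 33.1 and 31.0 FPKM in 12-month controls. Ddx3y, a Y-linked gene, was at 24.5 and 20.7 FPKM in 12-month knockout hearts and at 0.0352 and 0.0114 FPKM in 12-month controls. In every 12-month value below, the effect of the knockout cannot be told apart from that of sex-linked expression. At 3 months Xist was at or below 0.490 FPKM in all 6 libraries.

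Promoter sequence was available for 7 of the 10 genes, from RefSeq (GRCm38.p6), as 300 bases around the gene start. The windows of Trim63 and Trim54 are shown because these related ligase genes behaved differently in the hearts and because they were the only members whose window held a searched motif. The 250 bases before the start are printed 5′ to 3′ on the gene's strand. Capitals mark the FoxO element TTGTTTAC in Trim63 and the AP-1 element TGAGTCA in Trim54.
Trim63, chr4:134314870-134315119, plus strand: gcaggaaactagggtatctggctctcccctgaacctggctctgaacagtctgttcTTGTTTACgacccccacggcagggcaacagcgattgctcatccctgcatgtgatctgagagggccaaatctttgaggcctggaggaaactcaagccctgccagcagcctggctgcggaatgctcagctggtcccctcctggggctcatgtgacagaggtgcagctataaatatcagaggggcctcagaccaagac
Trim54, chr5:31116362-31116611, plus strand: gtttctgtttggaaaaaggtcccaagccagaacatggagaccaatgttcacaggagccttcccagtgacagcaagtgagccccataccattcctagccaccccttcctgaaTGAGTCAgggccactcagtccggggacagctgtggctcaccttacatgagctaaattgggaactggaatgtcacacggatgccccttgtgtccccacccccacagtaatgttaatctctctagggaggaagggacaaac

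A total of 4 motifs were searched on both strands of the 7 windows. TTGTTTAC was in the Trim63 window alone, from position −195 to −188 relative to the start, and in 1.23% of all 32851 windows. Its shorter form TGTTTAC, which overlaps it, was in the same place and in 3.65% of all windows. CACGTG, the core of the lysosomal gene element bound by TFEB, was in 0 of the 7 windows and in 7.15% of all. TGAGTCA was in the Trim54 window alone, from position −139 to −133, and in 5.2% of all. A match describes these letters and is not a binding site.

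At 3 months 0 of the 9 genes passed the test, in which 0.746% of 12200 genes passed. The test was limma on log2(FPKM + 1) with Benjamini-Hochberg adjustment over all genes, and the threshold was 0.05. By unadjusted p under 0.05, 2 of the 9 did, against 18.2% of all genes. The median difference of the 9 was −0.08 on the log2(FPKM + 1) scale, and that of all genes tested was 0.09. Knockout libraries lay below every control for Trim63 and Gabarapl1, a pattern seen in 4.6% of all genes, and above every control for Map1lc3a, seen in 20.1%. The other 6 overlapped.

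Among the ligases at 3 months, Trim63 stood at 68.9, 66.5 and 69.8 FPKM in knockout hearts, against 85.1, 101.7 and 74.9 FPKM in controls. The knockout values were close together and the controls spread by a ratio of 1.36 between highest and lowest. The difference was −0.34 (SE 0.14; limma, Benjamini-Hochberg adjusted p = 0.248), and p was 0.1 by exact permutation (two-sided), the smallest that 3 against 3 allows. Fbxo32 was at 15.7, 13.8 and 16.7 FPKM in knockout hearts and at 17.3, 20.9 and 15.3 FPKM in controls. Trim54, whose protein stabilises microtubules in muscle, was at 135, 115 and 133 FPKM in knockout hearts and at 117, 133 and 96.3 FPKM in controls. Trim55 was at 20.2, 18.8 and 23.4 FPKM in knockout hearts and at 21.7, 24.7 and 19.95 FPKM in controls. These last 3 genes overlapped between labels, and control replicate 2 held the highest control value of each ligase.

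The FoxO genes were the lowest of the set at 3 months. Foxo3 averaged 6.05 ± 0.202 FPKM in knockout hearts and 6.76 ± 1.20 FPKM in controls (SD, n = 3 each). Foxo1 averaged 2.86 ± 0.270 FPKM in knockout hearts and 2.97 ± 0.699 FPKM in controls. The 95% intervals of their differences ran from −0.43 to 0.18 for Foxo3 and from −0.37 to 0.31 for Foxo1 (log2 scale). The data do not tell differences within those ranges apart.

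Map1lc3a was the most abundant of the 9 at 3 months and had the largest difference. It stood at 649.8, 859 and 631 FPKM in knockout hearts, against 505, 503 and 452 FPKM in controls. All 3 knockout values were above all 3 controls, and knockout replicate 2 was the highest. The difference was 0.54 (SE 0.16; limma, Benjamini-Hochberg adjusted p = 0.164), with an exact permutation p of 0.1. Gabarapl1, a GABARAP relative induced by FoxO in muscle, was at 43.3, 36.7 and 45.8 FPKM in knockout hearts and at 49.4, 54.8 and 46.2 FPKM in controls. The lowest control was within 1 FPKM of the highest knockout value, and the difference was −0.26 (SE 0.13). Sqstm1 was at 178, 203 and 169 FPKM in knockout hearts and at 197, 197 and 166 FPKM in controls, a difference of −0.02 (95% interval −0.33 to 0.29).

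**Figure D1:**
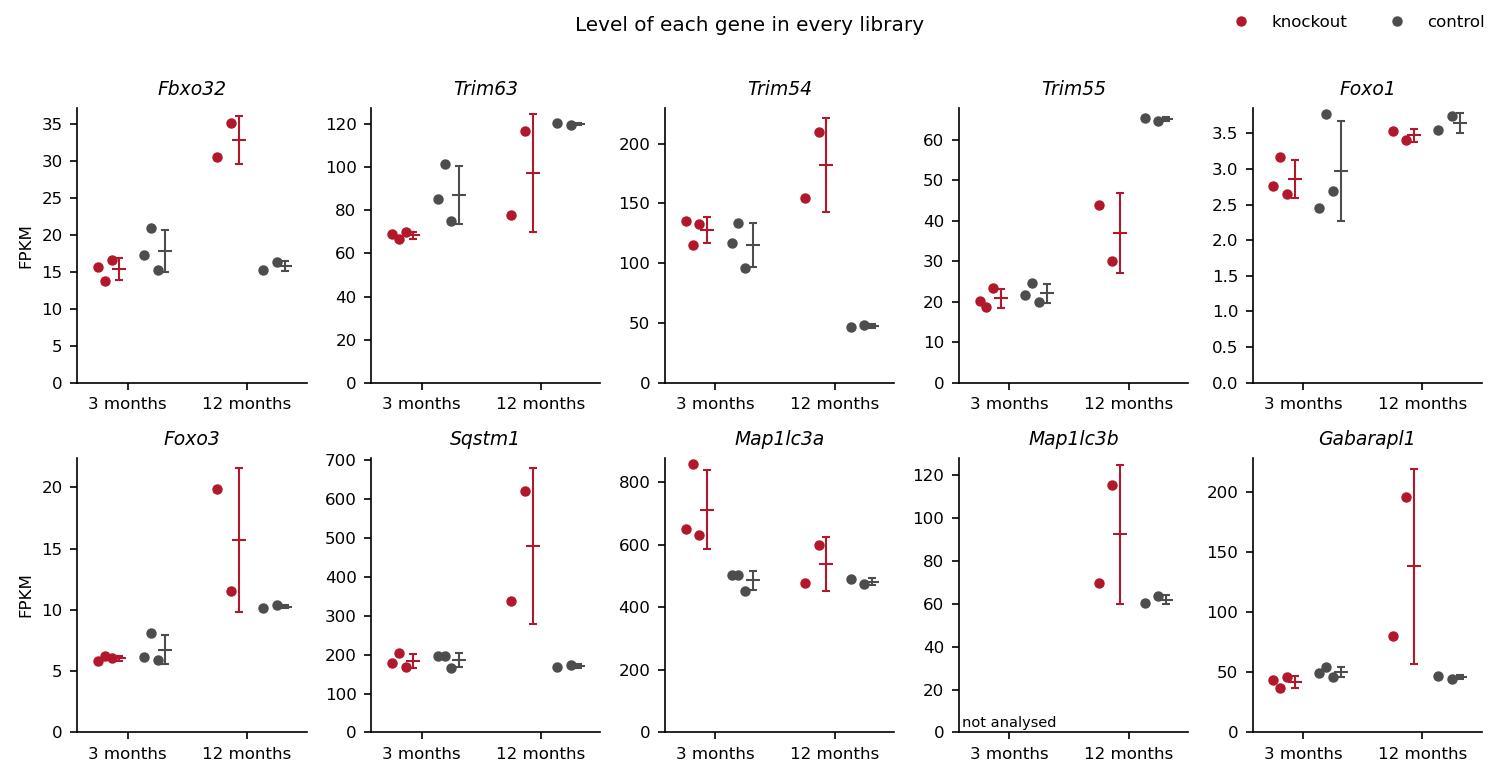
FPKM of each gene in every library, with knockout libraries in red to the left of controls in grey at each age, and mean and SD as bars beside the points. At 12 months both knockout libraries lie above both controls for Fbxo32, Trim54, Foxo3, Sqstm1, Map1lc3b and Gabarapl1 and below both for Trim63, Trim55 and Foxo1; each vertical axis starts at 0.

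At 12 months the same genes were further apart. Both knockout hearts were above both controls for 6 of the 10 genes, a pattern held by 27.3% of all 13179 genes tested, and below both controls for 3, held by 23%. Their median difference was 0.53, and that of all genes 0.01. Even so, 0 of the 10 passed the limma test with 2 libraries a group, in which 0.395% of all genes passed, while 5 of the 10 had an unadjusted p under 0.05, against 13.6% of all. An exact permutation test of 2 against 2 cannot go below 0.333. When all 10 libraries shared 1 estimate of the spread, 5 of the 9 genes measured at both ages passed at 12 months, where 3.77% of 11580 genes passed. Of these, 4 were higher in knockout hearts, as were 2.33% of all genes, and 1 was lower, as were 1.44%. That fit assumes that 12-month hearts vary like 3-month hearts, which was not tested. By the robust SD of the log2 ratio over genes, 12-month knockout libraries were 0.437 apart and 12-month controls 0.103. At 3 months the range was 0.137 to 0.341 among knockout libraries and 0.221 to 0.311 among controls. The highest-to-lowest ratio of knockout libraries was 1.84 for Sqstm1 and 2.43 for Gabarapl1 at 12 months, and 1.20 and 1.25 at 3 months.

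Trim54 showed the widest gap among the ligases at 12 months. It stood at 155 and 209.7 FPKM in knockout hearts, against 46.3 and 48.3 FPKM in controls. The lower knockout value was over 3 times the higher control. Means were 182 ± 39.0 FPKM in knockout hearts and 47.3 ± 1.40 FPKM in controls (SD, n = 2 each), a 3.85-fold ratio. The log2 difference was 1.91 (SE 0.18; limma, Benjamini-Hochberg adjusted p = 0.0777), and with the spread of all 10 libraries the adjusted p was 0.00067 (limma, Benjamini-Hochberg). Trim54 lies on chromosome 5 from 31116712 to 31137630 (plus strand, GRCm38) and overlaps the antisense gene Gm15469. The labels do not say whether the 12-month libraries kept strand, so reads of overlapping genes cannot be told apart there.

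Fbxo32 was at 30.5 and 35.1 FPKM in 12-month knockout hearts, against 15.3 and 16.3 FPKM in controls. Means were 32.8 ± 3.26 FPKM in knockout hearts and 15.8 ± 0.705 FPKM in controls, a 2.08-fold ratio, and this gene had the closest pair of knockout values among the 6 that were higher. The log2 difference was 1.01 (SE 0.13; limma, Benjamini-Hochberg adjusted p = 0.117), with an adjusted p of 0.00872 in the fit over all 10 libraries (limma, Benjamini-Hochberg). Fbxo32 lies on chromosome 15 from 58175879 to 58214932 (minus strand) and overlaps the antisense gene Gm15943.

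Trim63 and Trim55 did not follow Fbxo32. Trim55 was at 43.9 and 30.0 FPKM in knockout hearts, against 65.5 and 64.8 FPKM in controls, so both knockout values were well below both controls. Its log2 difference was −0.83 (SE 0.21; limma, Benjamini-Hochberg adjusted p = 0.268, and 0.0364 in the fit over all 10 libraries). Trim63 was at 77.8 and 116.7 FPKM in knockout hearts, against 120.4 and 119.6 FPKM in controls. Knockout replicate 2 was close to the controls and replicate 1 was far below them, and the difference was −0.33 (95% interval −0.95 to 0.29). The ratio of Fbxo32 to Trim63 was 0.392 and 0.301 in 12-month knockout hearts and 0.127 and 0.136 in 12-month controls. At 3 months it was 0.227, 0.207 and 0.239 in knockout hearts and 0.203, 0.205 and 0.204 in controls.

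The FoxO genes had no common direction at 12 months. Foxo3 was at 19.9 and 11.6 FPKM in knockout hearts, against 10.2 and 10.4 FPKM in controls. Replicate 1 alone was far above the controls, and the difference was 0.53 (95% interval −0.23 to 1.28). Foxo1 was at 3.53 and 3.40 FPKM in knockout hearts, against 3.54 and 3.74 FPKM in controls, a difference of −0.05 (95% interval −0.39 to 0.28). FoxO proteins are controlled largely by phosphorylation and location, which RNA levels do not show.

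Sqstm1, Gabarapl1 and Map1lc3b were higher in both knockout hearts than in both controls at 12 months, with knockout replicate 2 the highest of each. Sqstm1 was at 337 and 622 FPKM in knockout hearts, against 168 and 175 FPKM in controls. Its mean ratio was 2.80-fold and its log2 difference 1.41 (SE 0.32; limma, Benjamini-Hochberg adjusted p = 0.251, and 0.0110 in the fit over all 10 libraries). Gabarapl1 was at 80.6 and 196 FPKM in knockout hearts, against 47.1 and 44.6 FPKM in controls. The knockout libraries differed from each other by a ratio of 2.43, the widest spread of the 10 genes. Its log2 difference was 1.43 (SE 0.45; limma, Benjamini-Hochberg adjusted p = 0.327, and 0.0340 in the fit over all 10 libraries). Sqstm1 overlaps the protein-coding gene Mrnip on the other strand. Gabarapl1 overlaps 1700101I11Rik on the other strand and Gm44243 on its own. The limit given for Trim54 on reads of overlapping genes holds for both.

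Map1lc3b was at 69.5 and 115 FPKM in 12-month knockout hearts, against 60.4 and 63.4 FPKM in controls, a difference of 0.53 (95% interval −0.22 to 1.27). It lies on chromosome 8 from 121590361 to 121598760, inside the annotated gene Gm20388 on the same strand, so its value is uncertain where reads could be counted for either. Map1lc3a was at 477 and 599.9 FPKM in knockout hearts, against 490.2 and 475 FPKM in controls. The labels overlapped, and the difference was 0.15 (95% interval −0.28 to 0.58). After rescaling to TPM (FPKM divided by the library sum), its difference was −0.18.

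**Figure D2:**
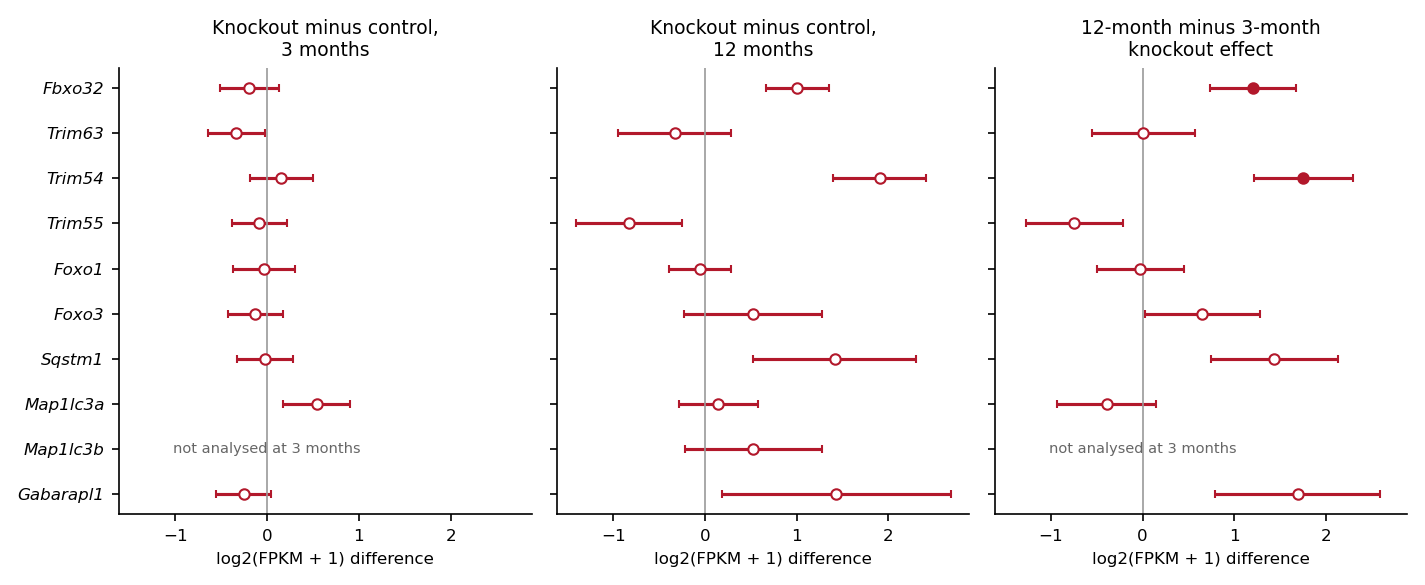
Differences on the log2(FPKM + 1) scale with 95% intervals from limma, for knockout minus control at 3 months and at 12 months and for the 12-month minus the 3-month effect. Filled points passed at an adjusted p under 0.05; they are Fbxo32 (1.20) and Trim54 (1.75) for the difference between ages, and no point is filled at either age alone.

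The knockout effect differed between the ages for Fbxo32 and Trim54. In an interaction contrast over all 10 libraries, 2 of the 9 genes measured at both ages passed, both with the higher effect at 12 months. This contrast shares the estimate of the spread between all groups, and so assumes that 12-month hearts vary like 3-month hearts. By the robust SD of the log2 ratio over genes, the 12-month knockout libraries were 0.437 apart and the 12-month controls 0.103. Neither gene passed at 12 months alone. Of all 11580 genes 1.38% passed in either direction and 0.656% in that one. For Trim54 the 12-month effect exceeded the 3-month effect by 1.75 (SE 0.24; limma, Benjamini-Hochberg adjusted p = 0.00733). For Fbxo32 it did so by 1.20 (SE 0.21; limma, Benjamini-Hochberg adjusted p = 0.0209). The knockout-control difference itself was 1.91 at 12 months and 0.15 at 3 months for Trim54, and 1.01 at 12 months and −0.20 at 3 months for Fbxo32. Both calls were lost without either 12-month control, and that of Fbxo32 also after TPM rescaling (adjusted p = 0.179, limma) and without knockout replicate 1 or control replicate 1 of 3 months (adjusted p = 0.0610 and 0.0523, limma). Over all alternatives run the adjusted p (limma) ran from 0.0014 to 0.0646 for Trim54 and from 0.00921 to 0.179 for Fbxo32.

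Sqstm1 (1.44, SE 0.31; limma, Benjamini-Hochberg adjusted p = 0.0564) and Gabarapl1 (1.69, SE 0.40; limma, Benjamini-Hochberg adjusted p = 0.0763) did not pass for the difference between ages. Sqstm1 passed after median-of-ratios scaling and at a minimum of 5 FPKM (limma, Benjamini-Hochberg adjusted p = 0.0383 and 0.0449). Without 12-month knockout replicate 1 and without replicate 2, the differences were 1.88 and 0.997 for Sqstm1 and 2.32 and 1.05 for Gabarapl1. Each of those fits leaves a lone 12-month knockout library, so the spread among 12-month knockout libraries is not measured there. Trim55 (−0.74), Foxo3 (0.65) and Map1lc3a (−0.39) did not pass either. Trim63 had nearly equal differences at both ages, −0.33 at 12 months and −0.34 at 3 months. The interval of its difference between ages was −0.55 to 0.57, so the data do not tell equal effects from unequal ones within that range. Foxo1 had −0.05 at 12 months and −0.03 at 3 months.

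Because FPKM is scaled to length, levels can be compared between genes within a library. Map1lc3a led in all 4 groups and Foxo1 was last in all 4. In 3-month knockout hearts the means ran from 713 FPKM (Map1lc3a) over Sqstm1, Trim54, Trim63, Gabarapl1, Trim55, Fbxo32 and Foxo3 to 2.86 FPKM (Foxo1), with no overlap between neighbours. In 3-month controls the order was the same, with overlap of Trim54 with Trim63 and of Trim55 with Fbxo32. In 12-month knockout hearts Trim54 and Gabarapl1 stood at ranks 3 and 4, while in 12-month controls they stood at ranks 6 and 7. From Trim54 down to Map1lc3b the neighbours in the 12-month knockout order overlapped, as did Trim55 with Fbxo32; in 12-month controls only Trim54 and Gabarapl1 did. Map1lc3a and Sqstm1 overlapped in 12-month knockout hearts (means 538 and 479.5 FPKM), and did not in 12-month controls (482 and 171 FPKM).

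The make-up of the MuRF family differed between the groups without overlap for Trim54 and Trim63; these shares were not tested. Of the summed FPKM of Trim54, Trim63 and Trim55, Trim54 gave 55.9% and 58.9% in 12-month knockout hearts and 19.95% and 20.8% in 12-month controls. Trim63 gave 28.2% and 32.7% in 12-month knockout hearts and 51.9% and 51.4% in controls, and Trim55 gave 15.9% and 8.41% in knockout hearts and 28.2% and 27.8% in controls. At 3 months Trim54 gave 60.2%, 57.4% and 58.8% in knockout hearts and 52.2%, 51.3% and 50.4% in controls, again with no overlap. The summed FPKM of the family was 276 and 356 in 12-month knockout hearts and 232 and 233 in 12-month controls.

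Map1lc3a also gave most of the LC3 and GABARAP family, counted with Gabarap and Gabarapl2. Its share was 54.0% and 47.8% in 12-month knockout hearts and 58.3% and 57.8% in controls. Gabarapl1 gave 9.12% and 15.6% in 12-month knockout hearts and 5.61% and 5.43% in controls. At 3 months the order was the other way, with 4.70%, 3.09% and 5.08% in knockout hearts and 6.65%, 7.42% and 6.81% in controls. Map1lc3b was not counted at 3 months, so family shares are not on the same base at the 2 ages.

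**Figure D3:**
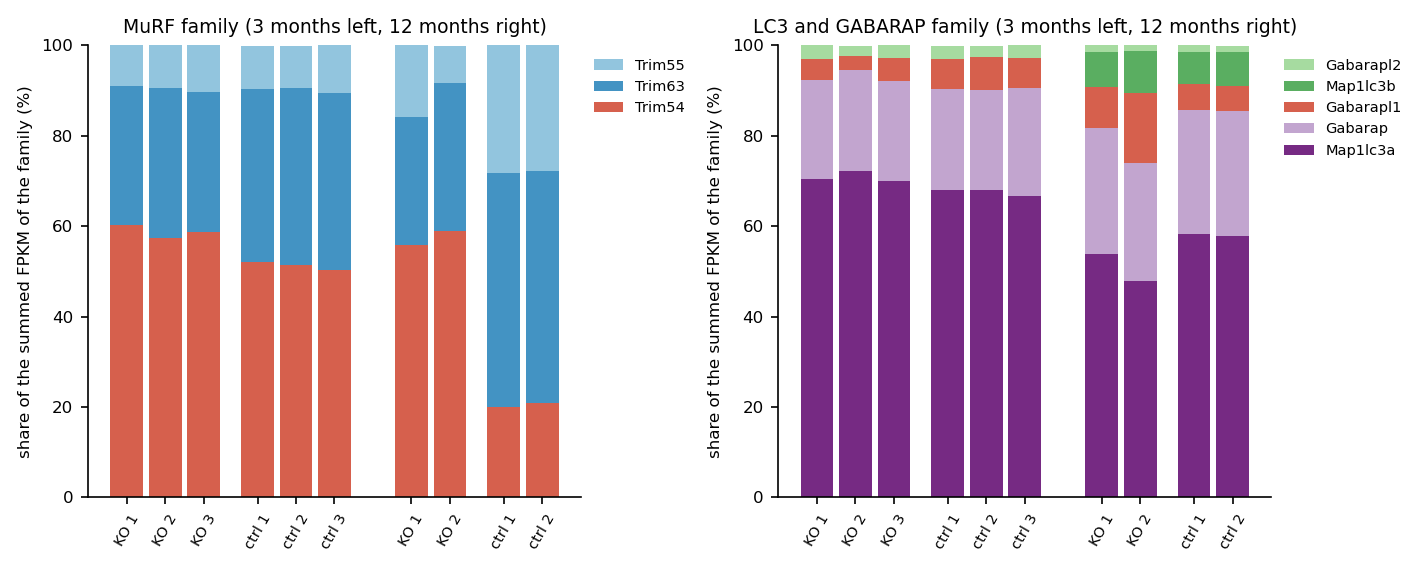
Share of the summed FPKM given by each gene of the MuRF family (left) and of the LC3 and GABARAP family (right), with 1 bar per library (KO, knockout; ctrl, control). Trim54 gives 55.9% to 60.2% in the 5 knockout libraries, 50.4% to 52.2% in the 3-month controls and 19.95% to 20.8% in the 12-month controls; Map1lc3b was not analysed at 3 months.

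Markers of other cells moved at 12 months as well, and their part in these values was not tested. Red blood cell markers fell in the test in 6 of 6 tested genes at 12 months, with summed levels of 1959 to 2160.0 FPKM in knockout hearts and 10664 to 10798 FPKM in controls. Fibroblast markers were lower in 6 of 8 genes, with sums of 786 to 887 FPKM in knockout hearts and 1090.1 to 1099 FPKM in controls, and 0 passed. Of 12 skeletal muscle markers, Myh1, Myh2, Myh4, Tnnt3 and Actn3 averaged under 1 FPKM at 12 months. The list summed to 2038 to 2433 FPKM in knockout hearts and 1785 to 1826 FPKM in controls. Ckm gave most of that sum, at 1722 and 1507 FPKM in knockout hearts and 1573 and 1530 FPKM in controls, with overlap. Acta1 was at 455 and 410 FPKM against 131 and 127 FPKM, and Tnni2 at 0.920 and 1.51 FPKM against 6.16 and 4.42 FPKM. Of the 7 tested, 5 were higher and 2 lower by mean, and 1 passed as higher. At 3 months Myh4 was listed at 0, and 1 of 5 tested skeletal muscle markers passed as higher. At 3 months the red blood cell genes moved the other way, with sums of 2083 to 3114 FPKM in knockout hearts and 819.6 to 1114 FPKM in controls, and 5 of 6 passed as higher. Smooth muscle and pericyte markers were lower in 6 of 7 genes at 12 months, endothelial markers in 6 of 8 and macrophage markers in 3 of 7, with 0 past the test. Adipocyte markers were lower in 5 of 6, of which 2 passed, and the 3 tested lymphocyte and neutrophil markers were lower by mean, with 0 past the test. At 3 months all 5 tested lymphocyte and neutrophil markers were higher, 2 of them past the test, with sums of 16.0 to 19.4 FPKM in knockout hearts and 6.05 to 10.4 FPKM in controls. Cardiomyocyte markers were higher in 4 and lower in 6 of 10 genes at 12 months, with 0 past the test. Atrial markers summed to 12380 to 28836 FPKM in 3-month knockout hearts and to 739 to 6285 FPKM in 3-month controls, and to 13770 to 16030 FPKM in 12-month knockout hearts and 6272 to 6433 FPKM in controls. Of 10 genes, 9 were higher at 3 months, 1 of them past the test, and 5 were higher and 5 lower at 12 months, with 0 past it. Nppa, the atrial natriuretic peptide gene, gave most of the 12-month sums in knockout hearts, at 15104 and 11263 FPKM, against 3313 and 3234 FPKM in controls. The atrial light chain gene Myl7 was lower, at 153 and 749 FPKM in 12-month knockout hearts, against 1275 and 1244 FPKM in controls. Sln, Myl4 and Bmp10 were also below both controls in both knockout hearts. Stard10, Dkk3, Fgf12 and Kcnj3 were above both controls in both knockout hearts, as was Nppa, and Sbk2 overlapped. At 3 months Nppa, Stard10 and Fgf12 lay above every control, and the other atrial markers overlapped. Myl7 was then at 113, 2568 and 891 FPKM in knockout hearts, against 84.2, 39.4 and 779 FPKM in controls. Nppa also gave most of the 3-month sums in knockout hearts, at 11824, 19851 and 16225 FPKM. Nppa, Myl7, Sln, Myl4, Bmp10, Ckm, Acta1 and Tnni2 were chosen after their values were seen.

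Of the other muscle ubiquitin ligases, 0 of 23 tested passed at 3 months, 0 of 24 at 12 months and 1 of 23 for the difference between ages. That gene was Fbxo30, which encodes the ligase MUSA1. It was at 10.6 and 12.3 FPKM in 12-month knockout hearts, against 8.43 and 8.20 FPKM in controls, and at 3.81, 3.34 and 3.95 FPKM in 3-month knockout hearts, against 5.91, 5.76 and 5.47 FPKM in controls. Knockout libraries were thus above both controls at 12 months and below all controls at 3 months, and the 12-month effect exceeded the 3-month effect by 0.93 (SE 0.17; limma, Benjamini-Hochberg adjusted p = 0.0245). The list's median difference was −0.13 at 3 months and 0.15 at 12 months.

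Of the FoxO regulators 19 were tested at 3 months and 22 at 12 months, and 0 passed at either age. Sgk1, a kinase that phosphorylates FoxO proteins, passed for the difference between ages. It was at 50.2 and 39.2 FPKM in 12-month knockout hearts, against 15.6 and 17.1 FPKM in controls, and at 9.96, 8.74 and 9.44 FPKM in 3-month knockout hearts, against 10.1, 10.1 and 9.70 FPKM in controls. The 12-month effect exceeded the 3-month effect by 1.47 (SE 0.18; limma, Benjamini-Hochberg adjusted p = 0.00336).

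Genes known as FoxO targets had the largest median of the 7 lists at 12 months. Of 23 tested, 20 were higher in knockout hearts and 3 lower, with a median of 0.42, where 51.5% of all genes were higher and their median was 0.01. At 3 months 8 of 21 were higher, with a median of −0.05, where 65.0% of all genes were higher. Only Cebpd, a transcription factor of acute stress, rose past the test at 12 months. It was at 14.5 and 16.5 FPKM in knockout hearts, against 3.50 and 4.20 FPKM in controls, higher by 1.77 on the log2 scale (SE 0.14; limma, Benjamini-Hochberg adjusted p = 0.0498). Cebpd was also above every control at 3 months, without passing, at 13.5, 24.4 and 14.1 FPKM against 9.65, 7.77 and 8.98 FPKM. Ddit4, an inhibitor of mTORC1 signalling, passed for the difference between ages (1.43, SE 0.23; limma, Benjamini-Hochberg adjusted p = 0.0147), as did Fbxo30, which is also on this list. Ddit4 was at 47.3 and 52.0 FPKM in 12-month knockout hearts, against 20.8 and 20.6 FPKM in controls, and its labels overlapped at 3 months.

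The lists of core autophagy and receptor genes held no call at either age or between ages. Of 20 genes of initiation and membrane supply, 15 were higher at 12 months (median 0.17) and 8 at 3 months (median −0.02). Of all genes tested, 51.5% were higher at 12 months (median 0.01) and 65.0% at 3 months (median 0.09). The 2 genes of lowest p were Pik3r4 and Atg101 at 3 months and Wdr45 and Ambra1 at 12 months. Wdr45, which binds phosphoinositides on the forming membrane, was at 26.3 and 41.5 FPKM in 12-month knockout hearts, against 20.5 and 21.5 FPKM in controls. Ambra1, an activator of the Beclin 1 complex, was lower, at 9.52 and 5.18 FPKM in 12-month knockout hearts, against 11.0 and 14.9 FPKM in controls. Pik3r4, the regulatory subunit of the class III PI3-kinase, was at 2.90, 2.603 and 2.86 FPKM in 3-month knockout hearts, against 3.26, 4.02 and 3.01 FPKM in controls. Atg101, a subunit of the ULK1 complex, had overlapping labels at 3 months.

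Of 13 genes of LC3 and GABARAP conjugation, 8 were higher at 12 months (median 0.06) and 11 at 3 months (median 0.12). The shares of all genes were 51.5% at 12 months (median 0.01) and 65.0% at 3 months (median 0.09). Gabarap was at 245 and 328 FPKM in 12-month knockout hearts, against 231 and 228 FPKM in controls, and at 202, 263 and 199 FPKM in 3-month knockout hearts, against 166, 163 and 161 FPKM in controls. Gabarapl2 was at 26.9, 28.9 and 24.9 FPKM in 3-month knockout hearts, against 22.3, 18.4 and 18.3 FPKM in controls. Both lay above every 3-month control (Gabarap 0.42, SE 0.14; Gabarapl2 0.44, SE 0.13; limma, Benjamini-Hochberg adjusted p = 0.192 and 0.156). At 3 months 20.1% of all genes lay above every control in this way. The lowest p at 12 months were those of the protease gene Atg4d (−0.24) and the conjugating enzyme gene Atg10 (0.29).

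Among 13 autophagy receptors 11 were higher at 12 months (median 0.15), where 51.5% of all genes were higher (median 0.01). The lowest p at that age was that of Bag3, a co-chaperone of selective autophagy in muscle. Bag3 was at 119 and 114 FPKM in 12-month knockout hearts, against 72.2 and 70.7 FPKM in controls (0.70, SE 0.10; limma, Benjamini-Hochberg adjusted p = 0.162). Tex264, a receptor for the endoplasmic reticulum, was at 34.9 and 39.2 FPKM in 12-month knockout hearts, against 26.4 and 25.3 FPKM in controls, and also lay above every control at 3 months. Fkbp8, a mitophagy receptor, was at 91.97, 109 and 91.87 FPKM in 3-month knockout hearts, against 73.9, 78.2 and 73.6 FPKM in controls.

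Of 24 lysosome genes and their regulators, 19 were higher at 12 months (median 0.22) and 20 at 3 months (median 0.15), and 0 passed. Among all genes 51.5% were higher at 12 months (median 0.01) and 65.0% at 3 months (median 0.09). Tfeb, which activates lysosomal genes, was at 18.8, 24.3 and 20.5 FPKM in 3-month knockout hearts, against 13.9, 17.0 and 13.0 FPKM in controls. At 12 months it was at 21.7 and 16.1 FPKM in knockout hearts, against 25.4 and 25.6 FPKM in controls, so the groups were apart in opposite directions at the 2 ages. The test of that difference did not pass (−0.93, SE 0.23; limma, Benjamini-Hochberg adjusted p = 0.0880). Gaa, the lysosomal enzyme that digests glycogen, was at 70.3 and 84.0 FPKM in 12-month knockout hearts, against 45.7 and 45.2 FPKM in controls. Npc1, a lysosomal cholesterol transporter, was at 13.6 and 10.2 FPKM in 12-month knockout hearts, against 6.89 and 6.44 FPKM in controls, and its difference between ages was 1.10 (SE 0.23; limma, Benjamini-Hochberg adjusted p = 0.0530).

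**Figure D4:**
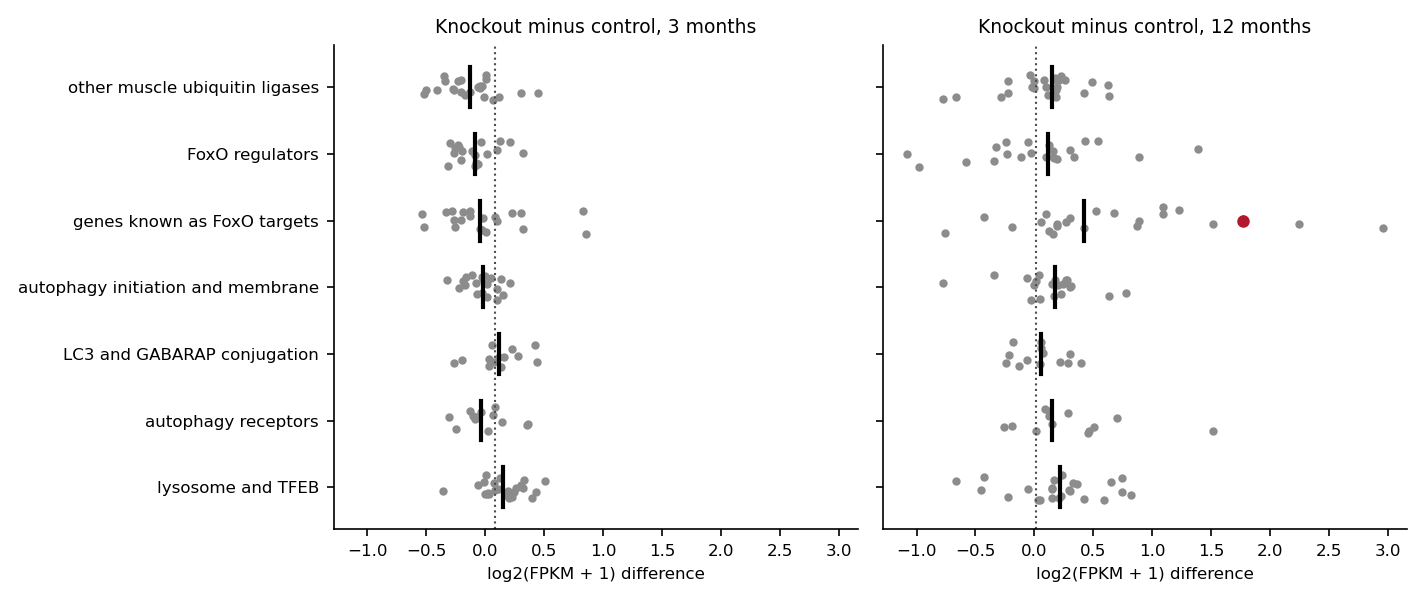
Difference of each tested gene (points) on the log2(FPKM + 1) scale by list, for knockout minus control at 3 months (left) and 12 months (right), with the list median as a black bar and the all-gene median as a dotted line. The red point is Cebpd (1.77), the only listed gene past the test at an age; the FoxO target list has the largest 12-month median (0.42).

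The genes whose pattern was most like that of Fbxo32 were Lmod2, Ddit4 and Armc2, by Pearson r of log2(FPKM + 1) centred within each age over the 10 libraries. Among 11579 genes compared, Lmod2, a leiomodin of the cardiac thin filament, had r = 0.996, Ddit4 r = 0.995 and Armc2 r = 0.994. Lmod2 was at 375 and 431 FPKM in 12-month knockout hearts, against 205 and 214 FPKM in controls. Within the set, Trim54 (r = 0.938), Gabarapl1 (r = 0.900) and Sqstm1 (r = 0.884) were most like Fbxo32, while Trim63 had r = −0.09. The genes most like Trim63 were Auts2 (r = 0.937), Rnft1 (r = 0.928) and Insig1 (r = 0.925). These values are descriptions: the 10 points share libraries, scaling and group differences.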

How the data were processed

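RNA-seq of dissected mouse hearts was deposited as 2 tables of FPKM, 1 per age, made by the authors with 1 column per library. The submitters' processing notes name Cufflinks 2.1.1, STAR 2.5.1b, TopHat2 2.1.0, FastQC and the builds GRCm38 and mm10, with no roles. Per the labels' protocols, poly(A) RNA at 3 months was made into strand-specific libraries (NEBNext Ultra II Directional), and at 12 months preparation and sequencing were done at the Genome Institute of Singapore, with no kit named. By its name, the 12-month table excludes outliers. There were 191 genes analysed at 12 months alone, and 187 of these lie on chromosome 8 from 119910360 to 124345724, among them Map1lc3b.

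Repeated identifiers (69 rows at 3 months) were summed. Coordinates came from GENCODE M21 (GRCm38), by identifier without version. Genes averaging at least 1 FPKM at an age were tested on log2(FPKM + 1), which understates changes of low genes, with limma 3.58.1 (R 4.3.3), eBayes with a trend and Benjamini-Hochberg adjustment. The interaction contrast was fitted on all libraries over genes passing that minimum at both ages. Library depth is unknown. Summed FPKM ran from 516272 to 718787 at 3 months, with overlap between knockout and control. At 12 months it was 1070016 and 1171104 in knockout libraries and 890181 and 897425 in controls. In the low values of 12 months, 24.7% to 28.0% of genes shared 1 log2 ratio to control replicate 2, which puts 1 read at 0.24 (replicate 1) and 0.52 (replicate 2) higher on the log2 FPKM scale in the knockout libraries and 0.07 higher in control replicate 1; at 3 months the share was at most 3.15%.

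The genes, the pathway lists and the marker lists were chosen with earlier results of these data known. Named list genes are all calls (at most 4 a list) or, where a list held none, the 2 of lowest p at each age, of which 1 is not reported here; likeness was computed for Fbxo32 and Trim63. Alternatives were a pseudocount of 0.1, a minimum of 5 FPKM or none, median-of-ratios and TPM scaling, no trend, a replicate block, 1 fit over all libraries, and leaving out each library. The scripts were tested on simulated data.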

Additional observations from a re-analysis of the deposited data

Results flagged for a closer look

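The knockout effect on Fbxo32 and Trim54 differed between the ages by the interaction test given above, by 1.20 for Fbxo32 and 1.75 for Trim54 on the log2 scale. In the 12-month controls Trim54 gave 19.95% and 20.8% of the MuRF total, and in all other libraries at least 50.4%. Where this sets 12-month controls beside 3-month libraries, it compares libraries prepared at different places. These 2 controls were also the only libraries with Xist above 0.490 FPKM, and sex-linked expression cannot be told apart from genotype at 12 months. For Gabarapl1 all 3 knockout libraries were below all controls at 3 months and both were above both controls at 12 months; the difference of 1.69 between ages did not pass the test (limma, Benjamini-Hochberg adjusted p = 0.0763).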

How the results depend on the processing

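The 3-month count of members called was 0 under every alternative run. The count of all genes called at 3 months (91) was 10 without a filter, 59 after median-of-ratios scaling, 29 with the replicate block, and 22 to 81 when a library was left out. At 12 months 52 genes were called, 17 without a filter, 437 in the fit over all 10 libraries, and 0 to 4409 when a library was left out; members called were 5 in the fit over all 10 libraries and 0 to 7 when a library was left out. Without either control these counts were 0 for genes and members, and without knockout replicate 1 or 2 they were 4409 and 654 for genes and 7 for members, where the spread comes from the 2 controls alone, the lone knockout library being assumed to vary like them. In the contrast between ages, too, a fit that leaves a lone 12-month knockout library does not measure the spread of that group. For the difference between ages 160 genes and 2 members were called. With the replicate block 55 genes and 1 member were (Fbxo32 had adjusted p = 0.118, limma), after TPM scaling 1 member was, after median-of-ratios scaling or at a minimum of 5 FPKM 3 members were (Sqstm1 added), and when a library was left out 40 to 787 genes and 0 to 5 members were, with 0 members and 40 and 41 genes without either 12-month control. The calls split into 76 higher and 15 lower at 3 months (42 and 17 after median-of-ratios scaling), 22 and 30 at 12 months (14 and 33 after TPM scaling) and 76 and 84 between ages (132 and 81 after median-of-ratios scaling, 33 and 89 after TPM scaling). Scaling to TPM moved the median of all genes at 12 months from 0.01 to −0.27, and lowered the 12-month difference of every member. That of Fbxo32 went from 1.01 to 0.70 and that of Trim54 from 1.91 to 1.59. Foxo3 went from 0.53 to 0.23, Map1lc3b from 0.53 to 0.21 and Trim63 from −0.33 to −0.65. Relative to the median after TPM scaling, Fbxo32 differed by 0.97 and Trim54 by 1.85. Small differences changed sign for Map1lc3a at 12 months (−0.18 after TPM scaling), Foxo1 between ages (0.055 after median-of-ratios scaling) and Trim63 between ages (−0.21 after TPM scaling). Leaving out a library also turned Foxo1 at 3 months (−0.12 to 0.11), Sqstm1 at 3 months (−0.10 to 0.033), Foxo1 between ages (−0.16 to 0.069), Trim63 between ages (−0.28 to 0.29) and Map1lc3a at 12 months (−0.017 to 0.31). The cause of these changes was not tested. Without control replicate 2, 22 genes were called at 3 months and without control replicate 3, 29 were. Foxo1 was not tested at a minimum of 5 FPKM. Same-numbered libraries did not pair: their deviations had r from −0.46 to −0.12 at 3 months and −0.006 at 12 months.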

Other observations

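Some listed FoxO target and autophagy genes, chosen here after their values were seen, were high in 12-month knockout replicate 2 above all. Pdk4, which restrains glucose oxidation, was at 188 and 1260.2 FPKM in knockout hearts, against 60.7 and 63.1 FPKM in controls. Bnip3, a mitophagy receptor, was at 50.8 and 289.5 FPKM in knockout hearts, against 41.4 and 42.6 FPKM in controls. That library also held the highest Sqstm1, Map1lc3b, Gabarapl1, Trim54, Fbxo32 and Map1lc3a of the 12-month libraries and the lowest Trim55 and Foxo1. It was 0.437 from knockout replicate 1 by the robust SD of the log2 ratio over genes, while the 2 controls were 0.103 apart.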
